A study of Arabidopsis thaliana with 36 samples.

Results

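The 10 genes described here encode light-harvesting chlorophyll-binding proteins and were followed in root segments of Arabidopsis thaliana. They were picked by locus, and are *LHCA1* (AT3G54890), *LHCA2* (AT3G61470), *LHCA3* (AT1G61520), *LHCA4* (AT3G47470), *LHCB1.1* (AT1G29920), *LHCB1.3* (AT1G29930), *LHCB3* (AT5G54270), *LHCB4.1* (AT5G01530), *LHCB5* (AT4G10340), and *LHCB6* (AT1G15820). All 10 had a row among the 37973 rows of the count table, and all 10 were among the 25889 genes that reached 15 reads summed over the libraries and were tested. Seedlings of the WT (Col-0) and of the *puchi-1* mutant, a loss-of-function line for the AP2/ERF transcription factor PUCHI, were grown upright on agar in continuous light and were turned at an age of 4 days, so that a lateral root formed at the bend. Bends were cut at 5 times, which were 12, 18, 24, 30, and 36 hpg (hours post-gravistimulation), and segments between bend and shoot, called ‘No LR’, were cut as tissue without a primordium. The labels place the ‘No LR’ harvest at 9 h, while the study’s methods give a later hour. Each of the 12 groups had 3 biological replicates, and each bend replicate pooled more than 400 seedlings, so that 1 library averages many roots and all cell layers of the segment. *puchi-1* is a single allele, and no other allele was profiled here.

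Light-harvesting proteins bind chlorophyll and carotenoids in the thylakoid membrane and pass the absorbed energy to the reaction centres. The LHCA proteins form the antenna of photosystem I, whereas the LHCB proteins form that of photosystem II, with LHCB1 and LHCB3 in the trimers of the major complex and LHCB4, LHCB5, and LHCB6 as the monomeric CP29, CP26, and CP24. Roots hold mostly non-green plastids, but roots grown in light form some chloroplasts, mainly above the young zones, and the transcription factors GLK2 and HY5 are known to promote this greening.

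In RefSeq’s annotation of the TAIR10.1 assembly, with the strand in parentheses, *LHCA1* spans chr3:20339504-20341176 (minus), *LHCA2* chr3:22745514-22747444 (plus), *LHCA3* chr1:22699715-22701412 (plus), and *LHCA4* chr3:17493343-17495033 (minus). For the trimer genes, *LHCB1.1* spans chr1:10474656-10475969 (minus), *LHCB1.3* chr1:10477885-10479114 (plus), and *LHCB3* chr5:22038165-22039568 (plus). For the minor antenna, *LHCB4.1* spans chr5:208866-210548 (plus), *LHCB5* chr4:6408007-6409849 (plus), and *LHCB6* chr1:5446462-5447880 (minus).

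*LHCB1.1*, *LHCB1.2*, and *LHCB1.3* lie close together on chromosome 1 and are nearly identical in their coding bases, which bears on how their reads can be assigned. Coding bases 25 to 84 of *LHCB1.1*, its neighbour *LHCB1.2*, and *LHCB1.3* are shown 5′ to 3′ to let the copies be compared, with capitals at the 8 positions where the copies are not all the same. They lie at chr1:10475809-10475868 (minus strand), chr1:10473163-10473222 (minus strand), and chr1:10478095-10478154 (plus strand) of the same assembly.
LHCB1.1: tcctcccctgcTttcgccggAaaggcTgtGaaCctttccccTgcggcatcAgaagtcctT
LHCB1.2: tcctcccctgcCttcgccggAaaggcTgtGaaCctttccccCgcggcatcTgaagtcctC
LHCB1.3: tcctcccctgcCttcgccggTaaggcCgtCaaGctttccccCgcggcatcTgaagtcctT
Over the coding length of 804 bases, *LHCB1.1* and *LHCB1.3* were 96.14% identical, with 31 differences, and *LHCB1.1* and *LHCB1.2* were 95.65% identical, with 35 differences. Of the 1215 stretches of 100 bases in the exons of *LHCB1.1*, the length of a read, 54 (4.44%) occurred unchanged in a transcript of *LHCB1.2* or *LHCB1.3*. For *LHCB1.3* the count was 37 of 1131 stretches (3.27%), and for the other 8 genes it was 0 against the annotated transcripts of all other genes. Reads of *LHCB1.1* and *LHCB1.3* are therefore uncertain in part, and the rule for reads that align to more than 1 gene is not given in the sources used here.

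The 250 bases before the annotated start were read for each of the 10 genes, since most of the genes varied together between libraries. Shown 5′ to 3′ are those of *LHCB1.3*, the gene with the highest level, *LHCA4*, the gene with the most motif matches, *LHCB4.1*, the gene with the smallest spread between replicates, and *LHCA2*, the gene that passed a test. They lie at chr1:10477635-10477884 (plus strand), chr3:17495034-17495283 (minus strand), chr5:208616-208865 (plus strand), and chr3:22745264-22745513 (plus strand). Capitals mark matches, on either strand, to 4 motifs. The first is the G-box, CACGTG, at which bZIP and bHLH factors such as HY5 and the PIFs bind. The second is the I-box, GATAAG, a light-responsive element. The third motif, CCAATC, is known to be bound by the GLK factors. The fourth, AANAATCT, takes any base at N and is a loose form of the site of the clock factor CCA1. Not every match to it need be such a site.
LHCB1.3: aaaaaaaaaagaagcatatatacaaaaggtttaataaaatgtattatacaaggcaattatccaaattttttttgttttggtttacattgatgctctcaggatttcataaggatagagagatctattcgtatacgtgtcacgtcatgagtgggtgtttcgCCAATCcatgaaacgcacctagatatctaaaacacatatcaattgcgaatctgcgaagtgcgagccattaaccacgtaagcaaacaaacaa
LHCA4: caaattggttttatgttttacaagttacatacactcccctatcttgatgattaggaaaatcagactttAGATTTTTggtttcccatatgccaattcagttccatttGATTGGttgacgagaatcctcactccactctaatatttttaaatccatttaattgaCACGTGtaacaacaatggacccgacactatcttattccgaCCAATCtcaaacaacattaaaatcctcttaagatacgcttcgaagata
LHCB4.1: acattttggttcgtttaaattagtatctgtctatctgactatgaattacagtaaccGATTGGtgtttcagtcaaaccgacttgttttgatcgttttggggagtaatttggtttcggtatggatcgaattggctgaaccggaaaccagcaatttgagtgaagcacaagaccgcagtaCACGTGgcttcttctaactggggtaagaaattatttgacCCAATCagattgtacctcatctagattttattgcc
LHCA2: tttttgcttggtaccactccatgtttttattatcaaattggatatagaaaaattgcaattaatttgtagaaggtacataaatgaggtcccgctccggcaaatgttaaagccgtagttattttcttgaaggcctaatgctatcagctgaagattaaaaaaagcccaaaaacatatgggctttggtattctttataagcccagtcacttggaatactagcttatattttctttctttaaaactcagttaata
Among the 10 promoters, CCAATC was found in 5, the G-box in 3, AANAATCT in 3, and the I-box in 2. In all 27443 promoters of this length, the shares were 10.2% for CCAATC, 6.49% for the G-box, 13.4% for AANAATCT, and 12.3% for the I-box. *LHCA2* and *LHCB3* held none of these letters in the window. A match is a stretch of letters and was not tested as a binding site.

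Libraries held between 31.7 and 121.6 M (mega) counts, the median library 48.1 M, and the 10 genes together drew 4972 to 53892 reads in a library. *PUCHI* mRNA was counted in every library, with 5.16 to 20.2 CPM (counts per M counts, after scaling) for the WT libraries as against 9.47 to 40.6 CPM for *puchi-1*. In each of the 6 segments, all 3 libraries of *puchi-1* lay above all 3 of the WT for this gene. The 12 shoot and stomatal markers, such as the stomatal regulator *SPCH*, summed to 5.43 to 29.7 CPM, with 5 to 10 of them at 0 in a library and *FAMA*, *MUTE*, and *YAB5* at 0 in all 36. Of the other groups of marker genes, the 7 root hair markers summed to 349 to 962 CPM in bends at 12 hpg and to 0.609 to 85.9 CPM at 36 hpg. The 9 markers of the endodermal barrier summed to 687 to 1210 CPM and 90.4 to 161 CPM at these times. Among the ‘No LR’ segments, replicate 1 stood apart in both genotypes. Its root hair markers summed to 493 CPM (WT) and 429 CPM (*puchi-1*), as against 0.741 to 22.5 CPM in the other 4 libraries, and its barrier markers to 1028 and 909 CPM, as against 59.7 to 129 CPM. Comparisons with ‘No LR’ segments are given with and without these 2 libraries. Without them, *puchi-1* ‘No LR’ keeps only replicates 2 and 3, whose titles share a number and date.

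Transcripts of 9 of the 10 light-harvesting genes were found in every root library, and *LHCB1.3* had the highest level per length. Levels between genes are given as CPM divided by the exon length in kilobases (CPM per kb), as the median of 36 libraries. *LHCB1.3* reached 70.8 CPM per kb (range 27.1 to 273) and was the highest of the 10 in 36 of 36 libraries. *LHCB4.1* at 30.7 CPM per kb and *LHCA4* at 30.6 CPM per kb followed and changed places from library to library, with *LHCA4* second in 21 libraries, *LHCB4.1* in 11, and *LHCB5* in 4. *LHCB5* reached 24.95 CPM per kb (range 13.2 to 48.2). *LHCB6*, *LHCA3*, and *LHCB3* lay at 19.6, 18.9, and 15.96 CPM per kb, with overlapping ranges of 9.69 to 36.9, 10.3 to 34.04, and 8.197 to 47.9. *LHCA1* reached 11.1 CPM per kb and *LHCA2* 7.61 CPM per kb, and *LHCA2* was the lowest of the genes other than *LHCB1.1* in 35 of 36 libraries.

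*LHCB1.1* stood at the other end, near 0. It drew 151 reads in the 36 libraries together, with 0 reads in 7 of them, and its median was 0.0494 CPM per kb. *LHCB1.3*, next to it on the chromosome, drew 185990 reads. Of the reads of *LHCB1.1*, *LHCB1.2*, and *LHCB1.3* together, 98.6 to 99.8% were assigned to *LHCB1.3*. At this depth, differences in *LHCB1.1* rest on a few reads. *LHCB1.5*, a further *LHCB1* gene outside the 10 that was named after its values were seen, drew 214789 reads and had group means of 52.6 to 182 CPM.

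The sum of the 10 genes differed widely between replicates of the same group. It ranged from 153 CPM in *puchi-1* at 18 hpg (replicate 2) to 804 CPM in *puchi-1* ‘No LR’ replicate 1, which is a 5.24-fold range around a median of 297 CPM. In ‘No LR’ segments the sum was 447, 419, and 234 CPM in the WT and 804, 277, and 300.02 CPM in *puchi-1*. At 12 hpg it was 241, 327, and 324 CPM in the WT and 281, 255, and 391 CPM in *puchi-1*. The genotypes thus spanned overlapping ranges at 12 hpg, whereas in ‘No LR’ segments 1 library of *puchi-1* exceeded all others. At 18 hpg it was 322, 205, and 248 CPM in the WT and 353, 153, and 219 CPM in *puchi-1*. At 24 hpg it was 318, 348, and 603 CPM in the WT and 293, 471, and 207 CPM in *puchi-1*. Replicate 3 of the WT at 24 hpg was the second highest of the 36 libraries. At 30 hpg the sum was 277, 452, and 386 CPM in the WT and 184, 350, and 442 CPM in *puchi-1*. At 36 hpg it was 265, 271, and 293 CPM in the WT, the closest replicates of any group, and 313, 196, and 237 CPM in *puchi-1*. The groups of the genotypes overlapped at all 6 segments.

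**Figure D1:**
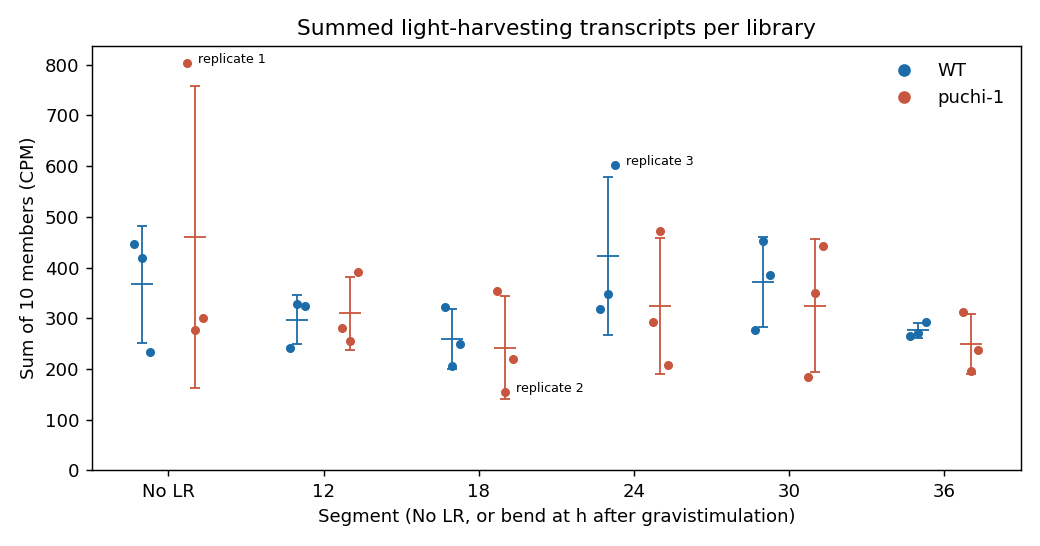
Summed level of the 10 light-harvesting genes (CPM, y axis) in each library, by segment (x axis) and genotype, with the mean and SD of 3 replicates as bars. The highest library, *puchi-1* ‘No LR’ replicate 1, lies at 804 CPM and the lowest, *puchi-1* at 18 hpg replicate 2, at 153 CPM.

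The same libraries were high or low for nearly all of the genes. *puchi-1* ‘No LR’ replicate 1 was the highest of the 36 libraries for 9 of the 10 genes, while *LHCB5* was highest in the WT at 24 hpg replicate 3. In these 2 libraries the 9 genes other than *LHCB1.1* all lay above their own medians, by a median of 1.29 and 1.07, respectively, on the log2 scale. *puchi-1* at 18 hpg replicate 2 was the lowest library for 7 of these 9 genes, and all 9 lay below their own medians, with a median of -0.96. For *LHCA3* the lowest library was *puchi-1* at 36 hpg replicate 2, and for *LHCB1.3* it was *puchi-1* at 30 hpg replicate 1. Over the 36 libraries, Pearson’s r of log2 CPM between members of the 36 pairs of these 9 genes was 0.62 to 0.96, with a median of 0.83. After subtraction of the group means it was 0.79 to 0.96, with a median of 0.90. Pairs with *LHCB1.1* had r of 0.40 to 0.58. These values describe libraries that share tissue, depth, and scaling, and carry no test.

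**Figure D2:**
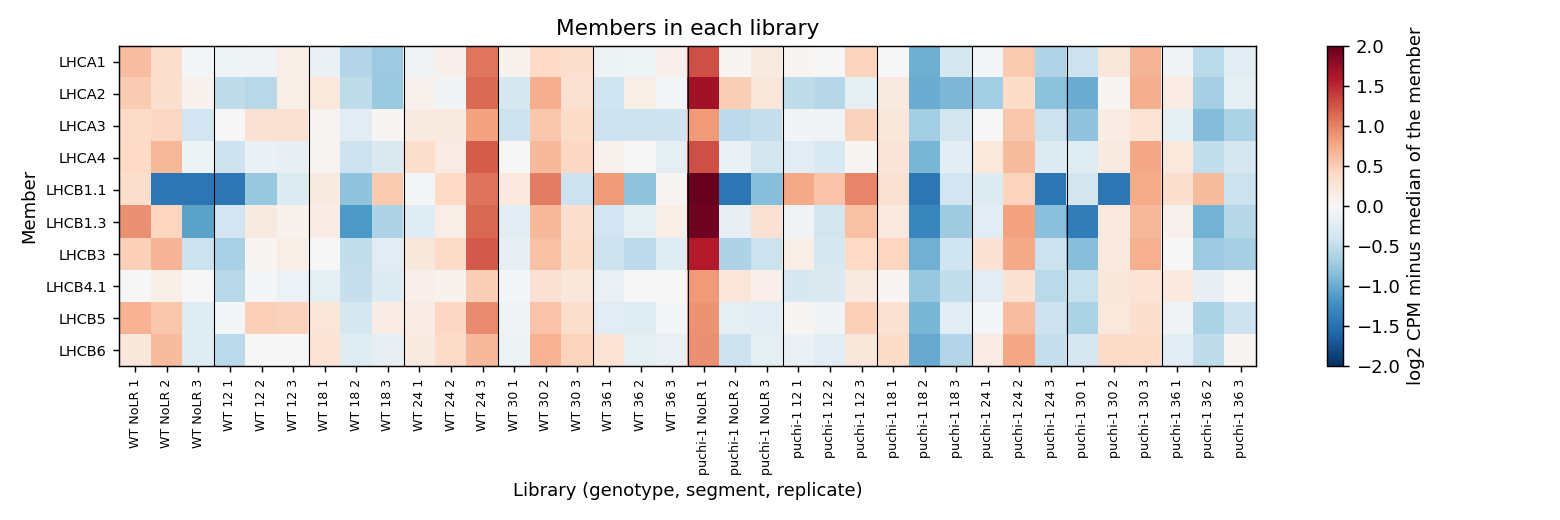
Level of each gene (y axis) in each of the 36 libraries (x axis), as log2 CPM minus the gene’s median over the libraries, with colours ending at 2 in both directions. Columns of a single colour, such as *puchi-1* ‘No LR’ replicate 1 and the WT at 24 hpg replicate 3, show that 9 of the 10 genes moved together, while the row of *LHCB1.1* rests on few reads.

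The spread between replicates was wide for these genes, and was smallest for *LHCB4.1*. The SD within groups on the log2 scale was 0.28 for *LHCB4.1* and lay between 0.42 and 0.45 for *LHCA1*, *LHCA3*, *LHCA4*, *LHCB5*, and *LHCB6*. It was 0.55 for *LHCA2*, 0.60 for *LHCB3*, 0.73 for *LHCB1.3*, and 0.95 for *LHCB1.1*. The median of the 10 was 0.45, as against 0.20 for the 19094 genes with a mean of at least 1 CPM. Differences between replicates made up a median of 65.2% of the variation of the 10 genes over the 36 libraries, and 44.1% of that of the 19094 genes.

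Group means were compared next, first for the antenna of photosystem I, and are given as mean ± SD of 3 replicates in the order ‘No LR’ segments, then bends from the earliest to the latest time. *LHCA1*, whose protein pairs with LHCA4, had 17.9 ± 3.903, 14.1 ± 1.21, 10.2 ± 2.28, 19.4 ± 8.998, 17.1 ± 1.95, and 13.9 ± 1.15 CPM in the WT. Its values were 21.7 ± 11.1, 16.01 ± 2.78, 10.7 ± 3.44, 14.4 ± 5.55, 16.6 ± 6.04, and 11.7 ± 1.83 CPM in *puchi-1*. The lowest mean of *LHCA1* was found at 18 hpg in both genotypes, and the libraries of the genotypes overlapped at every segment.

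*LHCA4* was the more abundant partner, with 50.7 ± 13.2, 33.8 ± 3.56, 34.4 ± 5.89, 62.3 ± 25.7, 51.7 ± 11.3, and 38.9 ± 3.53 CPM in the WT. The mutant had 54.5 ± 37.1, 35.4 ± 4.24, 34.3 ± 13.1, 46.8 ± 14.3, 48.6 ± 17.3, and 35.2 ± 9.49 CPM. In both genotypes the lower means were those at 12, 18, and 36 hpg, and the SD at 24 hpg in the WT came from 1 library, since the replicates stood at 50.6, 44.5, and 91.8 CPM.

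*LHCA2* and *LHCA3* form the other pair of the photosystem I antenna. *LHCA2* had 13.3 ± 1.99, 8.79 ± 2.47, 8.77 ± 3.195, 15.1 ± 7.39, 13.2 ± 4.57, and 10.03 ± 1.77 CPM in the WT. Its level in *puchi-1* was 20.6 ± 11.9, 8.03 ± 1.21, 7.74 ± 3.85, 8.85 ± 4.35, 11.4 ± 6.24, and 9.31 ± 2.55 CPM. The ‘No LR’ mean of *LHCA2* was thus the highest of the mutant, whereas in the WT the highest mean was that at 24 hpg. *LHCA3* had 34.97 ± 9.84, 35.6 ± 3.98, 29.9 ± 2.98, 41.2 ± 11.1, 35.7 ± 11.1, and 22.95 ± 0.158 CPM in the WT. Its counterpart in *puchi-1* was 32.9 ± 19.4, 33.7 ± 7.36, 26.3 ± 8.82, 32.6 ± 11.1, 29.6 ± 10.5, and 21.2 ± 5.21 CPM. The lowest mean of *LHCA3* was found at 36 hpg in both genotypes, and its 3 WT libraries at that time, at 22.8, 23.1, and 22.997 CPM, were nearly equal.

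In the major antenna of photosystem II, *LHCB1.3* encodes a main subunit of the trimers. Its means in the WT were 108 ± 61.6, 85.5 ± 16.6, 64.3 ± 29.4, 121 ± 63.4, 107 ± 30.7, and 79.4 ± 13.9 CPM. Those in *puchi-1* were 174 ± 141, 93.4 ± 32.6, 62.7 ± 33.1, 91.8 ± 53.4, 90.2 ± 52.9, and 65.4 ± 24.1 CPM. Its within-group SD of 0.73 on the log2 scale was the largest of the genes other than *LHCB1.1*. In ‘No LR’ segments *LHCB1.3* had 163, 118, and 41.5 CPM in the WT and 336, 78.1, and 107 CPM in *puchi-1*, so that replicates of 1 group differed up to 4.302-fold. *LHCB3*, whose protein occurs in trimers with LHCB1, had 24.7 ± 8.96, 18.2 ± 4.84, 16.98 ± 2.91, 31.8 ± 12.8, 24.5 ± 6.19, and 15.2 ± 1.53 CPM in the WT. The mutant reached 29.04 ± 26.4, 21.2 ± 5.17, 17.3 ± 8.44, 24.2 ± 9.46, 22.1 ± 10.8, and 14.8 ± 4.38 CPM. In ‘No LR’ segments of *puchi-1* the single values of *LHCB3* were 59.5, 12.9, and 14.7 CPM, and replicate 1 alone lay above all libraries of the WT.

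*LHCB4.1*, which encodes the minor antenna protein CP29, was the steadiest of the 10. Its means were 44.1 ± 1.94, 36.8 ± 6.52, 34.96 ± 3.33, 50.4 ± 8.64, 48.4 ± 5.603, and 41.4 ± 2.49 CPM in the WT. Those of *puchi-1* were 58.2 ± 16.98, 39.4 ± 7.89, 33.4 ± 9.73, 39.6 ± 11.5, 44.6 ± 11.3, and 43.4 ± 5.47 CPM. No group of *LHCB4.1* held replicates that differed more than 1.76-fold. *LHCB5*, the gene of CP26, had 45.4 ± 14.1, 43.5 ± 8.17, 35.5 ± 7.34, 50.7 ± 14.6, 42.9 ± 9.29, and 31.003 ± 2.59 CPM in the WT. In the mutant it had 41.7 ± 20.1, 38.8 ± 7.98, 30.3 ± 12.2, 37.7 ± 14.1, 35.3 ± 11.4, and 27.2 ± 5.46 CPM. The mean of *LHCB5* was the lower in *puchi-1* at every segment, while the libraries overlapped. *LHCB6*, the gene of CP24, had 28.02 ± 8.28, 21.1 ± 4.25, 23.2 ± 4.62, 31.5 ± 5.03, 30.7 ± 8.17, and 23.4 ± 4.31 CPM in the WT. The level in *puchi-1* was 27.6 ± 14.6, 23.2 ± 3.83, 19.2 ± 9.81, 27.9 ± 11.7, 26.6 ± 6.85, and 20.3 ± 3.76 CPM. For *LHCB6* the WT mean was the higher everywhere except at 12 hpg, each time by less than 1 SD of the WT.

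**Figure D3:**
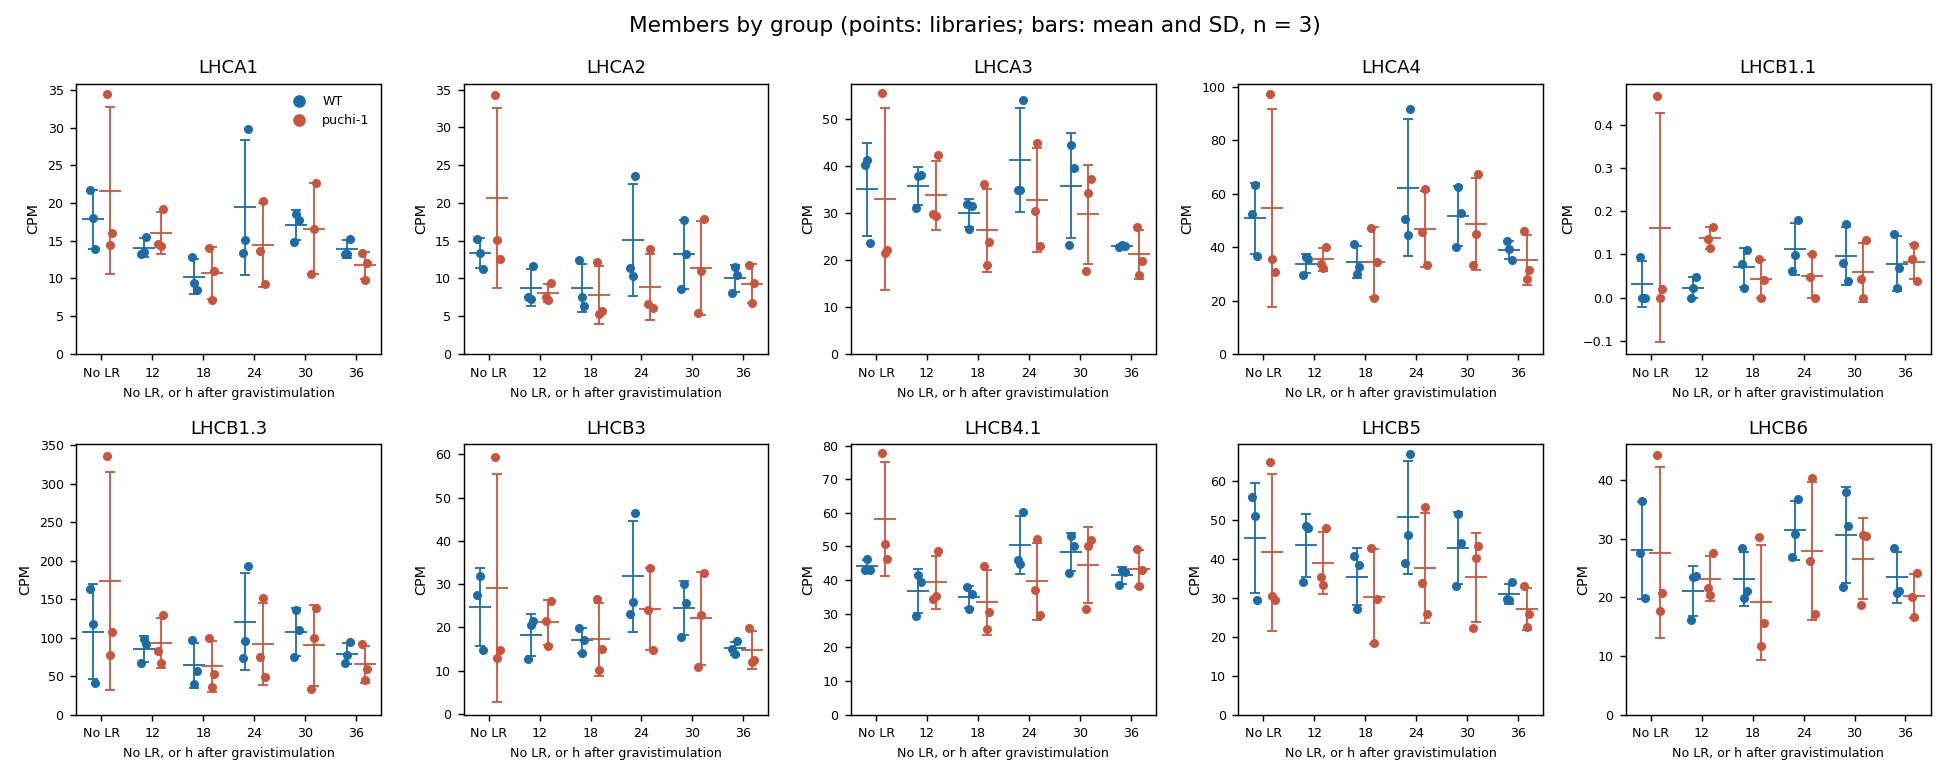
Level of each of the 10 genes (CPM, y axis of each panel) by segment (x axis) and genotype, with 1 point a library and bars for the mean and SD of 3 replicates. Libraries of the genotypes overlap at every segment except for *LHCB1.1* at 12 hpg, and single libraries of *puchi-1* ‘No LR’ and of the WT at 24 hpg lie far above their groups, as for *LHCB1.3* at 336 CPM.

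The first comparison asked whether the loss of PUCHI altered these genes in the same segment, and none of the 10 passed the test. Counts were fitted with edgeR’s quasi-likelihood model over all 36 libraries and p-values were adjusted over all 25889 genes by the Benjamini-Hochberg method. With a threshold of 0.05, 0 of 10 genes passed in ‘No LR’ segments, where 1.06% of all genes did, and 0 of 10 at 12 hpg (0.0734% of all genes), 18 hpg (0.421%), 24 hpg (0.695%), 30 hpg (0.498%), and 36 hpg (0.954%). No member had an unadjusted p under 0.05 in any of these 6 comparisons, and DESeq2 also called 0. At 18 hpg, where same-numbered libraries of the genotypes deviated together, a fit of these 6 libraries with the replicate number as a block called 771 genes and still 0 of 10. The lowest adjusted p of a member from edgeR was 0.427 in ‘No LR’ segments (*LHCB4.1*) and 0.734, 0.858, 0.405, 0.982, and 0.855 from 12 to 36 hpg. With so few genes of the whole table called, 0 of 10 is what the background share leads to and does not set these genes apart.

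The intervals show how large a difference could have been missed. In ‘No LR’ segments the log2FC of *puchi-1* relative to the WT was 0.69 for *LHCB1.3* (95% interval -0.46 to 1.84), 0.63 for *LHCA2* (-0.26 to 1.51), and 0.40 for *LHCB4.1* (-0.05 to 0.85). At 24 hpg the log2FC was -0.77 for *LHCA2* (-1.66 to 0.12), -0.43 for *LHCA1* (-1.10 to 0.24), and -0.43 for *LHCB5* (-1.11 to 0.25). All 10 genes had a negative log2FC at 24 hpg, with a median of -0.40, and 7 of 10 a positive one in ‘No LR’ segments, with a median of 0.25. The medians over all genes tested were 0.00 and -0.01. The 2 highest libraries stand on opposite sides here, *puchi-1* ‘No LR’ replicate 1 in the one comparison and the WT at 24 hpg replicate 3 in the other. Without the WT at 24 hpg replicate 3, the log2FC at 24 hpg was -0.30 for *LHCA2*, 0.01 for *LHCA1*, -0.18 for *LHCB5*, and 0.11 for *LHCB1.3*, and 0 of 10 genes passed. Without replicate 1 of both genotypes, the log2FC in ‘No LR’ segments was 0.25 for *LHCB1.3*, 0.18 for *LHCA2*, and -0.72 for *LHCB3*, and 0 of 10 genes passed, where 1.54% of all genes did.

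**Figure D4:**
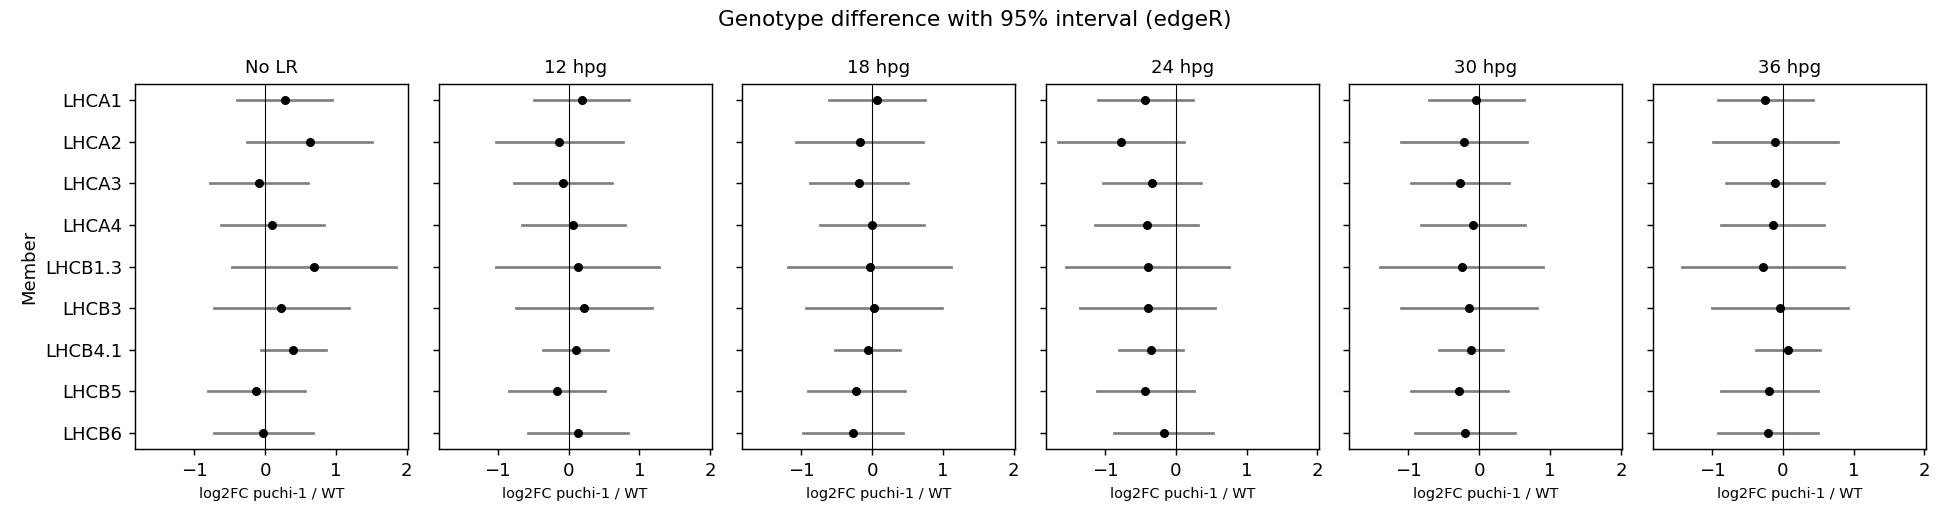
log2FC of *puchi-1* relative to the WT (x axis) for 9 of the genes (y axis) in each of the 6 segments, with 95% intervals from edgeR. Every interval includes 0, and *LHCB1.1*, whose intervals are wider than the axis, is left out.

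Only *LHCB1.1* had groups that did not overlap between the genotypes in any segment, and it did so on very few reads. At 12 hpg *LHCB1.1* had 0, 1, and 2 reads in the WT and 6, 6, and 5 reads in *puchi-1*, or 0, 0.0228, and 0.0468 CPM and 0.136, 0.114, and 0.163 CPM. All 3 libraries of *puchi-1* were thus above the WT, with an adjusted p of 0.734 from edgeR. Among all genes tested, 12% had groups that did not overlap at 12 hpg. At 18, 24, 30, and 36 hpg, as well as in ‘No LR’ segments, 0 of 10 genes had such groups, where 19.7, 25.9, 14.8, 20.7, and 9.12% of all genes did.

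Averaged over the 5 bend time points, 0 of 10 genes passed, where 10.9% of all genes did. No member had an unadjusted p under 0.05 in edgeR, and DESeq2 called 0. The log2FC was -0.26 for *LHCB5* (95% interval -0.56 to 0.05), -0.28 for *LHCA2* (-0.68 to 0.12), and -0.20 for *LHCA3* (-0.51 to 0.11). That of *LHCB4.1* was -0.07 (-0.28 to 0.13), the narrowest interval of the 10. The largest decrease within these intervals was thus a log2FC of -0.68, apart from *LHCB1.1* with its interval of -0.82 to 0.85. The test for a genotype difference that varies over the bends also called 0 of 10 genes (0.0155% of all genes), with adjusted p of 1 for each, no unadjusted p under 0.05, and 0 calls by DESeq2.

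The next comparison set bends at 12 hpg against ‘No LR’ segments, and *LHCA2* was the only member with a call, in *puchi-1* alone. *LHCA2* had 34.3, 15.1, and 12.5 CPM in *puchi-1* ‘No LR’ segments and 7.48, 7.19, and 9.41 CPM at 12 hpg, so that all 3 bends lay below all 3 ‘No LR’ libraries. Its log2FC was -1.36 (standard error 0.44, 95% interval -2.26 to -0.46, adjusted p = 0.0254 from edgeR). In the WT *LHCA2* had 15.2, 13.4, and 11.3 CPM in ‘No LR’ segments and 7.48, 7.24, and 11.6 CPM at 12 hpg, with log2FC of -0.60 (-1.49 to 0.29, adjusted p = 0.415). The groups of the WT overlapped by 1 library, and the difference between the genotypes in this change was not tested.

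The call of *LHCA2* was lost without any 1 of 3 libraries. Without *puchi-1* ‘No LR’ replicate 1 its log2FC was -0.78 with adjusted p = 0.179, and without replicate 1 of both genotypes it was -0.83 with adjusted p = 0.151, both from edgeR. Without replicate 1 or replicate 2 of *puchi-1* at 12 hpg, the log2FC of *LHCA2* was -1.31 and -1.29 (adjusted p = 0.0873 and 0.0782), so that the difference itself was nearly as large. It was -1.38 when only the libraries compared were fitted (adjusted p = 0.0945) and -1.01 with the month as a covariate (adjusted p = 0.105). Over 15 alternatives, the adjusted p of *LHCA2* ranged from 0.0088 to 0.179. Of all genes tested, 24.3% passed in this comparison and 13% passed as lower, so that 1 of 10 is not above the background share. The part of root hair and endodermal cells, whose markers were high in replicate 1 of the ‘No LR’ segments and in all bends at 12 hpg, was not tested.

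The other 9 genes did not pass, although 8 of them had a negative log2FC. In *puchi-1*, *LHCB4.1* had 77.6, 50.8, and 46.2 CPM in ‘No LR’ segments and 34.4, 35.3, and 48.5 CPM at 12 hpg (log2FC = -0.56, 95% interval -1.02 to -0.11, adjusted p = 0.0634 from edgeR and 0.0453 from DESeq2, which called *LHCA2* and *LHCB4.1*). *LHCB1.3* had a log2FC of -0.90 (-2.05 to 0.26) and *LHCA4* of -0.62 (-1.36 to 0.11). The median over the 10 genes was -0.45, and that over all genes tested -0.02. In this comparison *LHCA2* was the only member without overlap, where 32.4% of all genes had none. Without replicate 1 of both genotypes, the log2FC became 0.04 for *LHCA4*, -0.04 for *LHCB1.3*, and 0.58 for *LHCA3*. *LHCB1.1* then passed as the only member, with an adjusted p of 0.0492 and 0 and 2 reads in the 2 ‘No LR’ libraries left against 6, 6, and 5 reads at 12 hpg. In that fit 36.7% of all genes passed, and 1 of 10 is below this share.

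In the WT, 0 of 10 genes passed between 12 hpg and ‘No LR’ segments, where 4.17% of all genes did, and none had an unadjusted p under 0.05 in edgeR or a call by DESeq2. Of the 10, *LHCA4* and *LHCB4.1* had groups that did not overlap, where 12.2% of all genes had none. *LHCA4* had 52.3, 63.2, and 36.8 CPM in ‘No LR’ segments and 29.7, 36.2, and 35.4 CPM at 12 hpg (log2FC = -0.59, 95% interval -1.32 to 0.15). *LHCB4.1* had 43.1, 46.4, and 42.9 CPM and 29.4, 41.6, and 39.4 CPM (log2FC = -0.26, -0.72 to 0.19). The highest bend lay just below the lowest ‘No LR’ library for both genes. The median log2FC of the 10 genes was -0.35, and that of all genes tested -0.02. Without replicate 1 of both genotypes, 0 of 10 passed, with a log2FC of -0.61 for *LHCA4* and 0.06 for *LHCB1.3*, while the share of all genes that passed was 29.6%.

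During the growth of the primordium from 12 to 36 hpg, 0 of 10 genes passed in either genotype, while 36.2% of all genes did in the WT and 33.6% in *puchi-1*. No member had an unadjusted p under 0.05 in edgeR, and DESeq2 called 0 in both. *LHCA3* came closest. In the WT it had 31.04, 37.9, and 38.01 CPM at 12 hpg and 22.8, 23.1, and 22.997 CPM at 36 hpg (log2FC = -0.63, 95% interval -1.33 to 0.06, adjusted p = 0.146 from edgeR). The mutant had 29.6, 29.2, and 42.2 CPM and 26.96, 16.8, and 19.8 CPM (log2FC = -0.67, -1.36 to 0.03, adjusted p = 0.131). All 3 libraries at 36 hpg lay below those at 12 hpg in both genotypes. When only the libraries compared were fitted, *LHCA3* passed in the WT (log2FC = -0.61, adjusted p = 0.00595 from edgeR) and in *puchi-1* (log2FC = -0.69, adjusted p = 0.0402). The share of all genes passing was then 36.5% and 35.9%, and 1 of 10 is below both.

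*LHCB5* also had groups that did not overlap between these times. In the WT it had 34.05, 48.5, and 47.9 CPM at 12 hpg and 29.7, 29.3, and 33.99 CPM at 36 hpg, where the highest late library lay just under the lowest early library (log2FC = -0.49, 95% interval -1.17 to 0.20). The mutant had 35.3, 33.3, and 47.99 CPM and 33.2, 22.4, and 25.9 CPM (log2FC = -0.51, -1.20 to 0.17). *LHCA1* had no overlap in *puchi-1*, with 14.6, 14.3, and 19.2 CPM at 12 hpg and 13.4, 9.76, and 12.03 CPM at 36 hpg (log2FC = -0.45, -1.12 to 0.23). Groups without overlap were thus found for 2 of 10 genes in the WT and 3 of 10 in *puchi-1*, where 49.8 and 48.1% of all genes had them. The log2FC of the other genes had both signs in each genotype, and *LHCB4.1* had a log2FC of 0.17 (-0.28 to 0.62) in the WT and 0.14 (-0.31 to 0.59) in *puchi-1*. The median of the 10 was 0.06 in the WT and -0.48 in *puchi-1*, beside 0.04 and 0.07 over all genes tested.

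Tests over all 5 bend times called 0 of 10 genes in the WT, where 28.2% of all genes passed, and 0 of 10 in *puchi-1*, where 24.4% did. The lowest adjusted p of a member was 0.162 in the WT (*LHCA4*) and 0.423 in *puchi-1* (*LHCA1*), with no unadjusted p under 0.05 in edgeR and 0 calls by DESeq2. With the 15 bend libraries of the WT fitted alone, *LHCA4*, *LHCB3*, and *LHCB4.1* passed. These 3 of 10 compare with 32.1% of all genes in that fit. Their highest WT mean was that at 24 hpg, as it was for each of the other members. The sum of the 10 genes at 24 hpg in the WT was 318, 348, and 603 CPM, so that replicate 3 weighs on these means.

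Other genes of the photosynthetic apparatus were set beside the 10, from lists of 4 to 15 genes. From 12 to 36 hpg, 17.3% of all genes fell in the WT and 15.9% in *puchi-1*. Of 12 genes of photosystem I subunits, 7 fell in the WT (median log2FC = -0.77), and 5 fell and 1 rose in *puchi-1* (median -0.70). *PSAE1*, a stromal subunit, had log2FC of -1.21 in the WT (adjusted p = 0.00857 from edgeR) and -1.30 in *puchi-1* (adjusted p = 0.0052). Of 10 genes of photosystem II, 4 fell in the WT and 6 in *puchi-1*, among them *PSBR* and *PSBX*, with medians of -0.64 and -0.82. Carbon fixation differed from these lists. Of its 9 tested genes, 1 rose and 1 fell in the WT, and 1 fell in *puchi-1*, with positive medians of 0.77 and 0.32. The light-harvesting genes and these lists were not tested against each other, and the root hair markers and the markers of the endodermal barrier were lower at 36 hpg as well, with 2 of 7 and 7 of 9 passing in the WT and 7 of 7 and 8 of 9 in *puchi-1*. Their part in these results was not tested.

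Genes that act around the antenna were counted in the same way from 12 to 36 hpg. Of all 25889 genes tested, 4892 rose and 4474 fell in the WT, and 4588 rose and 4112 fell in *puchi-1*. The single genes that rose in the lists below do not stand out from these shares. Among 15 genes of chlorophyll synthesis, 4 fell and 1 rose in the WT, and 3 fell and 1 rose in *puchi-1*. *CHLH*, a subunit of magnesium chelatase, had log2FC of -1.16 in the WT and -1.09 in *puchi-1*, and *CRD1*, which acts in a later step, -1.03 and -1.05. Among 14 regulators of greening, 5 fell and 1 rose in the WT, and 4 fell and 1 rose in *puchi-1*. *GLK2* had log2FC of -1.51 and -1.14, *PIF3*, which encodes a repressor of greening in the dark, had -1.25 and -1.42, and *GNC* had -2.53 and -3.28. Of the 8 genes of light-stress proteins related to the antenna, such as *OHP2*, 4 fell in the WT and 6 in *puchi-1*. Among the 4 genes that deliver antenna proteins to the thylakoid, 1, *CPFTSY*, rose in both genotypes.

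In the remaining 11 genes of the light-harvesting family, *LHCB2.1*, which encodes a further subunit of the trimers, rose (log2FC = 2.04) and *LHCB4.2*, a second gene of CP29, fell (log2FC = -1.42) in the WT from 12 to 36 hpg. In *puchi-1* only *LHCB7* rose (log2FC = 0.48). Of all 25889 genes tested, 4892 rose and 4474 fell in the WT, and 4588 rose in *puchi-1*. A count of 1 of 11 is not above any of these shares. At 12 hpg relative to ‘No LR’ segments of *puchi-1*, 3 of the 11 were lower, which were *LHCB7* (log2FC = -0.81), *LHCB2.1* (log2FC = -2.98), and *LHCB2.2*, for which no read was counted at 12 hpg. *LHCB2.1* and *LHCB2.2* share 129 stretches of 100 bases, and reads may be split between them. In the same comparison 4 of 9 tested genes of carbon fixation were lower, among them the Rubisco small subunit gene *RBCS1A* (log2FC = -1.82), and 3 of 8 light-stress genes were higher, among them *ELIP1* (log2FC = 2.11). Of the photosystem I genes 1 of 12 was lower, of those of photosystem II 1 of 10, and of those of chlorophyll synthesis 2 of 15. Of 14 regulators, 2 were higher and 1 was lower, and 0 of 4 genes of antenna targeting passed. Of all genes tested, 13% were lower and 11.2% were higher. Without replicate 1 of both genotypes, 0 of 9 carbon fixation genes passed (*RBCS1A* log2FC = -1.34, adjusted p = 0.0579 from edgeR), whereas 5 of 8 light-stress genes were higher (*ELIP1* log2FC = 2.28). *LHCB7* (log2FC = -0.70) and *LHCB2.1* (log2FC = -1.92) were still lower in that fit, and *LHCB2.2* had an adjusted p of 0.0523. *LHCB4.2* was higher in it (log2FC = 1.08). The counts then were 2 higher and 1 lower for photosystem I, 3 higher and 1 lower for photosystem II, 3 higher and 1 lower for chlorophyll synthesis, 5 higher and 1 lower for the regulators, and 1 lower for antenna targeting. Of all genes, 16.3% were higher and 20.3% were lower in it. Between the genotypes averaged over the bends, 1 gene of carbon fixation (*CFBP1*), 2 light-stress genes (*LIL3.2* and *SEP1*), and 1 regulator (*GUN1*) were lower in *puchi-1*, and no gene of the photosystem I, photosystem II, or chlorophyll lists passed. In that comparison 10.9% of all genes passed.

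Across libraries, the level of the 10 genes followed that of other photosynthesis genes more closely than that of the markers of other cells. Each list was summarized in each library as the mean log2 CPM, after centring, of its genes that passed the filter. Pearson’s r with the 10 genes over 36 libraries was 0.89 for photosystem I (Spearman’s rho 0.87), 0.89 for carbon fixation (0.82), 0.87 for the other light-harvesting genes (0.78), 0.78 for photosystem II (0.78), and 0.76 for chlorophyll synthesis (0.71). Without *puchi-1* ‘No LR’ replicate 1 and the WT at 24 hpg replicate 3, the values of r were 0.84, 0.84, 0.79, 0.73, and 0.69. After subtraction of group means they were 0.98, 0.95, 0.90, 0.93, and 0.89. For the regulators r was 0.70, and for the light-stress genes 0.50. The points share libraries, depth, and scaling, and the values are descriptions without a test.

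For markers of other cells, r was 0.13 for root hairs, 0.20 for the endodermal barrier, and -0.13 for shoot and stomata. After subtraction of group means it was 0.36, 0.52, and -0.22. The values for shoot and stomata rest on the 5 of 12 genes that passed the filter. Of these, *AS2*, *SPCH*, *TMM*, and *YAB2* drew only 349, 365, 141, and 15 reads over all libraries. The 2 libraries with the highest light-harvesting level had summed shoot and stomatal markers of 10.2 and 11.6 CPM, below the median of 12.4 CPM over all libraries. The highest sums of these markers, 29.7 and 26.3 CPM, were found in *puchi-1* at 36 hpg replicate 2 and in the WT ‘No LR’ replicate 3, where the 10 genes summed to 196 and 234 CPM. Nearly all reads of this list were those of *KNAT1*, a meristem gene, with 26676 reads in all. In whole segments, more green cells and more mRNA for each cell cannot be told apart.

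**Figure D5:**
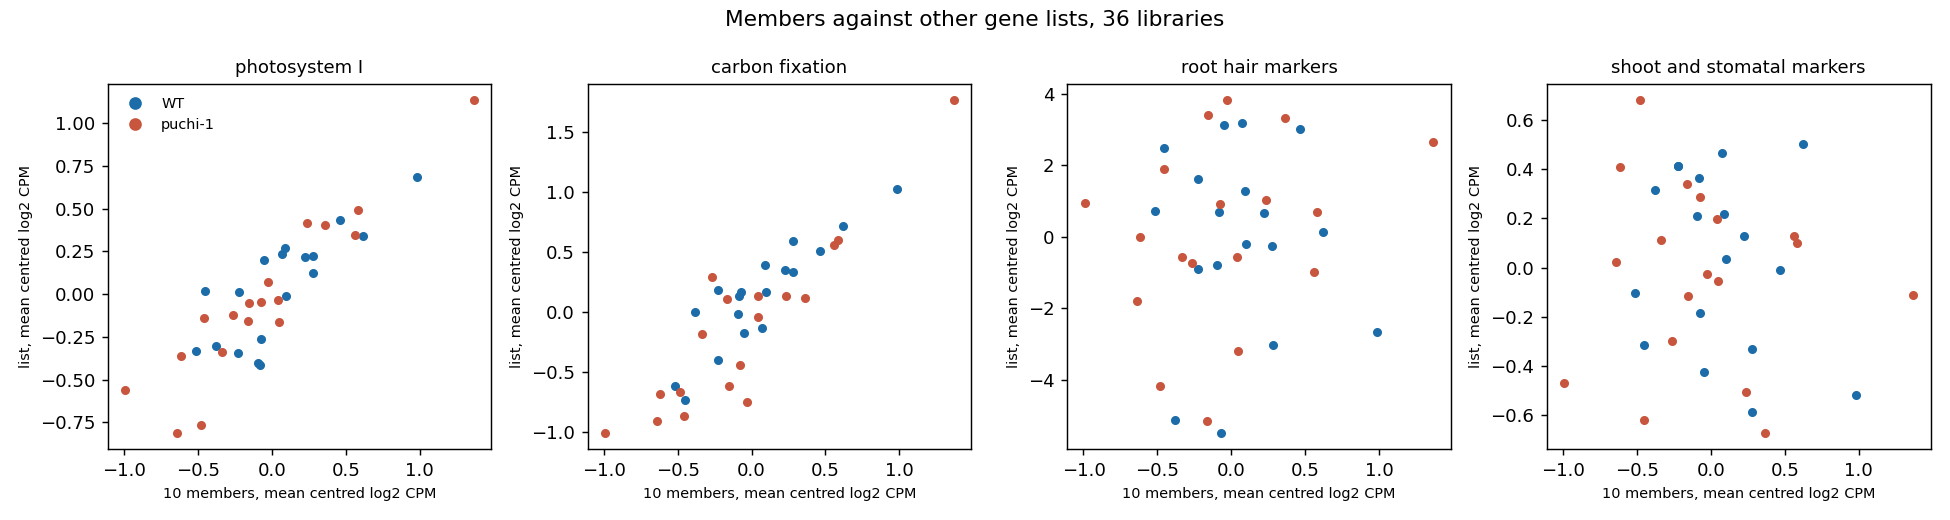
Mean centred log2 CPM of the 10 light-harvesting genes (x axis) against that of 4 other gene lists (y axes) in 36 libraries, coloured by genotype. Points of photosystem I and carbon fixation follow the 10 genes (r = 0.89 for both), whereas root hair markers (r = 0.13) do not. Neither do shoot and stomatal markers (r = -0.13), of which only 5 genes passed the filter, most with few reads.

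Most sample titles carry a date, and the sum of the 10 genes was compared by its month. What the dates mark is not stated. The sum was 281 to 471 CPM in 4 libraries of March, 153 to 277 CPM in 7 of June, 219 to 452 CPM in 12 of July, 234 to 603 CPM in 8 of August, and 207 to 804 CPM in 5 libraries without a date. The June libraries thus held the low end, and in each group with a June library that library had the lowest sum of the 3 replicates. These groups were the WT at 12, 18, and 30 hpg and *puchi-1* at 12, 18, 30, and 36 hpg. No ‘No LR’ or 24 hpg title carries a June date. The June title of the WT at 12 hpg gives a later year than the other titles with a year. Whether the month bears on the sum was not tested. Within months, r with photosystem I was 0.46 in June, 0.80 in July, and 0.95 in August, and with carbon fixation it was 0.83, 0.85, and 0.85. Total counts and the sum had a Spearman’s rho of 0.229.

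Outside the 10, the genes most like them were again genes of photosynthesis. Among 19085 other genes with a mean of at least 1 CPM, the 10 with the highest r with the mean of the light-harvesting genes over 36 libraries had r of 0.81 to 0.87. These were *PSAG*, *PSAH-1*, and *PSAL* of photosystem I, *PSB27* and *PSBTN* of photosystem II, *PETC* of the cytochrome b6f complex, *PRK* and *GAPA-2* of the Calvin cycle, *TL29*, which encodes a thylakoid lumen protein, and AT4G28080. After subtraction of group means r was 0.82 to 0.94. Likeness was measured on the same libraries, so that a few high and low libraries weigh on it.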

How the data were processed

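RNA of root segments was sequenced in 36 libraries as stranded, paired-end reads of 100 nt. The authors demultiplexed reads with bcl2fastq (2.20), aligned them to TAIR10 with TopHat2 (2.1.1) and Bowtie2 (2.3.5.1), sorted them with SAMtools (1.9), and counted reads per gene on the reverse strand with featureCounts (2.0.0). The deposited values are raw counts, with no filter and no normalization. Rows without a locus tag (87, with 0.07 to 0.362% of the counts of a library) were kept, under the same filter as all other rows.

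Groups were taken from the labels. Counts were fitted in R (4.3.3) with edgeR (4.0.16), with TMM scaling and at least 15 reads over the libraries, in 1 model of 12 groups with 24 residual degrees of freedom (biological coefficient of variation 0.268). Tests were two-sided, and an adjusted p under 0.05 counted as passing. CPM is scaled by TMM, and log2 CPM used a prior count of 2. The fit was tested on simulated data before use. Intervals cover the spread between pools. The totals of 31.7 to 121.6 M counts set the depth, and for *LHCB1.1* counting error prevails.

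The 10 genes and all 12 gene lists (122 genes) were chosen with earlier results of these data known. All 10 genes are named. Of each other list, counts and at most the 3 genes with the lowest adjusted p in a comparison where any passed were to be named, and the 10 genes most like the members by r. *LHCB1.5* and the markers at 0 were named after their values were seen. Alternatives were DESeq2 (1.42.0), the method of the study, and another scaling (RLE), other filters, a block for the replicate number, a covariate for the month in the title, only the libraries compared, and each library left out in turn. Summing the reads of *LHCB1.1* to *LHCB1.3*, and leaving out replicate 1 of the ‘No LR’ segments in both genotypes, were chosen after seeing the data, as was a block at 18 hpg alone. Promoters and positions are those of RefSeq’s annotation of TAIR10.1, in which all 10 loci matched.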

Additional observations from a re-analysis of the deposited data

How the results depend on the processing

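Of 266 counts of light-harvesting genes passing, each from 1 comparison and 1 alternative, 13 moved, and of 1797 log2 fold changes of single genes 6 lost a call, 8 gained a call, and 1 changed direction. All 6 comparisons of the genotypes by segment, their mean over bends, and the test of a varying difference stayed at 0 of 10 genes under every alternative run. For *puchi-1* 12 hpg against ‘No LR’ the count of 1 (*LHCA2*) became 2 with the filterByExpr filter and with DESeq2, each adding *LHCB4.1*, and 0 with the month covariate and with only the libraries compared. With single libraries left out it ranged from 0 to 2, and was 0 without *puchi-1* ‘No LR’ replicate 1 or *puchi-1* 12 hpg replicate 1 or 2. With replicate 1 of the ‘No LR’ segments left out in both genotypes, *LHCB1.1*, with 0 and 2 against 6, 6, and 5 reads, turned from a log2FC of -0.18 to 3.27. For WT 36 against 12 hpg the count of 0 became 2 with the month covariate (*LHCA3* and *LHCB5*) and 1 with only the libraries compared (*LHCA3*). For *puchi-1* 36 against 12 hpg it became 1 with only the libraries compared (*LHCA3*), and for WT over the bend times 3 (*LHCA4*, *LHCB3*, and *LHCB4.1*). In these the smaller fits estimate the spread from fewer libraries. For other moves the cause was not tested. With the replicate number as a block, the count was 1 for *puchi-1* 12 hpg against ‘No LR’ and 0 elsewhere, and the block changed no call. That block gave each number 1 shift shared by all segments, so it could not show a pairing within single segments. Over the 6 segments, 9 of 18 same-numbered pairs had a correlation of deviations over 0.1 (range -0.52 to 0.78). By this measure the numbers paired all 3 libraries only at 18 hpg (0.63, 0.33, and 0.68). Pairing was partial in ‘No LR’ segments (0.78, -0.19, and 0.68) and at 30 hpg (0.35, 0.47, and 0.02). With the block fitted to the 6 libraries at 18 hpg alone, a choice made after seeing the data, 0 of 10 genes passed. Summing *LHCB1.1* to *LHCB1.3* changed no count. Precision was limited by 3 libraries a group and an SD within groups of 0.45 on the log2 scale.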
